A study of Mus musculus with 15 samples.

Results

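The keratin genes Krt8, Krt18, Krt19, Krt17 and Krt1 were followed in mouse embryonic stem (ES) cells without Srf. Srf encodes serum response factor (SRF), which binds DNA at CArG boxes and passes signals from serum and from actin on to transcription. All 7 probe sets annotated to these 5 genes were taken, which are 5 of 8221 named genes on the array. Krt8, Krt18 and Krt19 are the 3 simple-epithelial keratins among them, and Krt17 and Krt1 belong to other epithelia. The genes were chosen by their differences between the cell lines on these same arrays, so those differences are given as a description, without a test. The response to serum was tested, although Krt1 may have been picked with its time course in view, so its result there is not independent evidence.

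Total RNA of 3 ES cell lines was hybridized to Affymetrix MGU74A arrays, which read each transcript by several short probes, together called a probe set. The lines were E100-/- (Srf-null), its rescue line E100-/- rescue, and the wild-type line E14wt. Each line was sampled at 0, 10, 30, 60 and 180 min of fetal bovine serum (FBS), with 1 array per line and time, so each line has 5 arrays and no array was repeated. The labels give neither the way the rescue was made nor how many clones each line stands for, and they are silent on how cells were kept before the serum. Srf had 0 probe sets in the annotation, so the genotype could not be checked by the deleted gene.

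Keratins form the intermediate filaments of epithelial cells. Each filament is built from pairs of an acidic (type I) and a basic (type II) keratin, and an unpaired keratin is degraded. Krt8 (type II) with Krt18 (type I) is the first such pair in the mouse embryo and marks trophoblast and other simple, single-layered epithelia. ES cell cultures can also hold differentiated cells with such filaments.

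Values are intensities after quantile normalization between arrays, without a length scale, so levels are compared between arrays for the same probe set and not between genes. Values under a floor of 84.98 intensity units were set to that floor before log2 was taken, since many deposited values were negative and have no log. The 2% trimmed mean of the deposited values ran from 350 to 1438 units over the 15 arrays. All 8 ES cell markers on the array lay above the floor in each line, with a summed level of 78030 to 102800 on the Srf-null arrays, 66510 to 89330 on the rescue arrays and 63050 to 99500 on the wild-type arrays.

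The arrays labelled rescue 0 min and wild-type 0 min stood apart from the rest of their lines. Their ratio of 3' to 5' signal of the beta-actin control was 4.22 on rescue 0 min and 7.53 on wild-type 0 min, against 0.847 to 2.11 on the other arrays of both lines and 1.64 to 3.83 on the Srf-null arrays. The same ratio of the Gapdh control was highest on wild-type 0 min (1.51). On rescue 0 min it was 0.722, within the range of the other arrays (0.683 to 1.27), so that control did not set rescue 0 min apart. The fetal growth factor gene Igf2, which was named after its values were seen, lay below 0 on the 0 min arrays of rescue (-1829) and wild-type cells (-1853), as it did on all Srf-null arrays, and between 2640 and 10240 on the other rescue and wild-type arrays. The Igf2 pattern was among those most like Krt8 and Krt18 (Pearson r = 0.949 for each), so it is not independent of the keratin values. Line differences are therefore given over all 15 arrays and over the 12 arrays from 10 to 180 min. The arrays also fell into 2 sets by the share of values at or below 0. On 5 arrays that share was 37% to 41.6%, and on 10 arrays it was 24.9% to 30.9%. The 5 arrays were those of Srf-null cells at 30, 60 and 180 min and of rescue cells at 0 and 10 min.

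Krt8 and Krt18 lie near each other on chromosome 15 (GRCm38.p6, from RefSeq). Krt8 spans 101996711 to 102004342 on the minus strand and Krt18 spans 102028216 to 102032026 on the plus strand, and their starts are 23874 bases apart with 2 other annotated genes between them. Krt1 lies on the same chromosome at 101845426 to 101850786. The 2 other members lie on chromosome 11, Krt19 at 100140810 to 100145926 and Krt17 at 100256215 to 100261029. The promoter sequences at hand held an entry for 2 of the 5 genes, Krt8 and Krt18, and both are shown. Each runs from 250 bases before to 20 bases after the annotated start, and capitals mark a TATAAA match. Krt8 is read from chr15:102004323-102004592 on the minus strand and Krt18 from chr15:102027966-102028235 on the plus strand.

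Krt8: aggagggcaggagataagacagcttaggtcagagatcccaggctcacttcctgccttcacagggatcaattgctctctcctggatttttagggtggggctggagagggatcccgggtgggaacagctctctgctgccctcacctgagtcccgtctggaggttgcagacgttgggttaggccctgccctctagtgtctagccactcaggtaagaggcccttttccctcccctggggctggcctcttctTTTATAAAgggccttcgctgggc
Krt18: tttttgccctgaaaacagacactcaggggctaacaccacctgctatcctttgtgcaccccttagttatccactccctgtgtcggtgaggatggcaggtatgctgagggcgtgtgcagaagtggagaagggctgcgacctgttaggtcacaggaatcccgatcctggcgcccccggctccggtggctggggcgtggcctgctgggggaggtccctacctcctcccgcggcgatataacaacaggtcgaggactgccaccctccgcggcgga

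The capitals in Krt8 hold 2 overlapping matches, 1 on each strand, that begin 3 bases and 1 base before the annotated start (-3 and -1). Krt18 had 0 matches of these letters. TATAAA was found on either strand in 12.9% of 32851 mouse promoter windows of the same length. The other motifs searched on both strands were the GC box GGGCGG (in 34.1% of windows), the AP-1 site TGANTCA (7.23%) and the CArG box bound by SRF (1.53%), and none of the 3 had a match in either window. A match or its absence describes these letters in this window and nothing about a factor.

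Krt8 was low in Srf-null cells at every time. Its single probe set gave 462.8, 399.9, 599.3, 714.8 and 683.5 units at 0, 10, 30, 60 and 180 min in Srf-null cells. Rescue cells gave 368.7, 3053, 2729, 6340 and 3388 units, and wild-type cells gave 948, 2531, 2499, 3383 and 2310 units at the same times. The highest Srf-null value lay below every wild-type value and below all rescue values but that of 0 min, which was the lowest of all 15. From 10 min on the log2 difference of Srf-null cells from the mean of both other lines was -2.41 ± 0.16 (SE, 4 arrays per line), a 5.32-fold lower level. Over all 15 arrays it was -2.0 ± 0.34 (SE, 5 arrays per line). It was similar against each line, at -2.64 ± 0.19 against rescue and -2.18 ± 0.19 against wild-type cells from 10 min on.

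Krt18, the type I partner of Krt8, showed the largest line difference of the 7 probe sets. Srf-null cells gave 532.1, 157, 262.4, 257.1 and 363 units in order of time. Rescue cells gave 200.8, 2806, 2760, 7036 and 4594 units, and wild-type cells gave 309.8, 1551, 1785, 2133 and 2081 units. From 10 min on every Srf-null value lay below all 8 rescue and wild-type values, whereas at 0 min the Srf-null array was the highest of the 3, by 1.41 log2 units over rescue and 0.78 over wild-type. The difference from 10 min on was -3.45 ± 0.20 (SE, 4 arrays per line), an 11-fold lower level in Srf-null cells. With the 0 min arrays it was -2.54 ± 0.58 (SE, 5 arrays per line), 5.83-fold.

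Rescue cells exceeded wild-type cells for both members of the pair from 10 min on. The rescue minus wild-type difference was 0.46 ± 0.19 for Krt8 and 1.09 ± 0.23 for Krt18. It was smaller than its error over all 15 arrays for Krt8 (0.10 ± 0.39) and close to it for Krt18 (0.74 ± 0.67). The rescue array at 60 min held the highest value of both genes.

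Krt19, a type I keratin without the tail domain of other keratins, was not above the floor on any Srf-null array. Its probe set 92550_at gave -487.9, -496.6, -557.4, -532.2 and -577.4 units in Srf-null cells. Rescue cells gave -552.2, 464.5, 600.7, 1329 and 564.4 units, and wild-type cells gave -212.8, 123.6, 234.6, 92.78 and -199.8 units. Krt19 was thus above the floor on 4 of 5 rescue arrays, 3 of 5 wild-type arrays and 0 of 5 Srf-null arrays. Against rescue cells from 10 min on, it was at least 7.96-fold lower in Srf-null cells (-2.99 ± 0.42 on the log2 scale). Against wild-type cells the difference was -0.53 ± 0.42, with values at the floor in both lines, and rescue cells exceeded wild-type cells by 2.46 ± 0.42.

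The second Krt19 probe set, 102121_f_at, carries the suffix for probes shared with a gene family. It was above the floor on 0 Srf-null arrays, 3 rescue arrays and 1 wild-type array, with 387.1 units on rescue 60 min as its highest value. Both Krt19 probe sets therefore had their highest signal on the same array. The difference of 102121_f_at between Srf-null cells and both lines was -0.48 ± 0.31 from 10 min on.

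**Figure D1:**
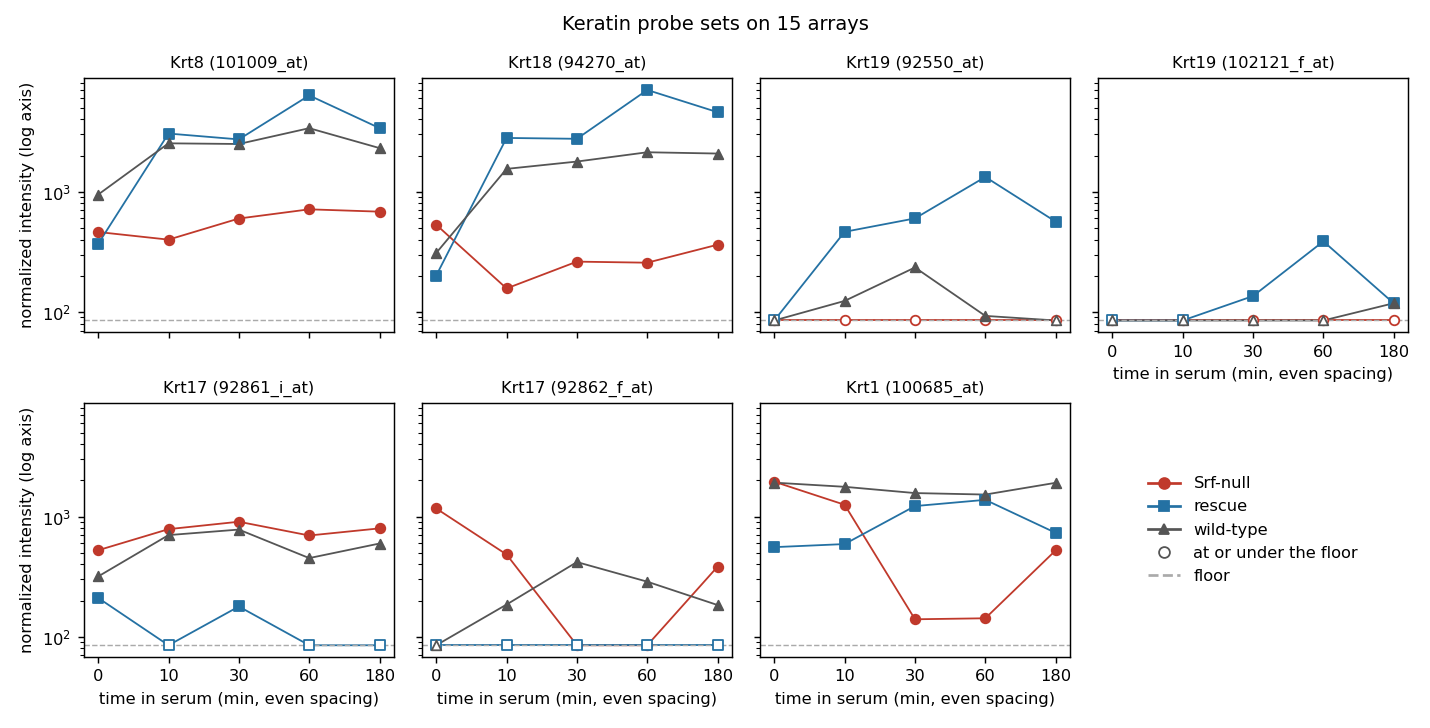
Normalized intensity (log axis) of the 7 keratin probe sets against time in serum (0 to 180 min, evenly spaced) for Srf-null, rescue and wild-type cells, with 1 array per point, open symbols for values at or under the floor and a dashed line at the floor of 84.98 units. Srf-null values of Krt8 and Krt18 lie under both other lines from 10 to 180 min, while at 0 min Krt8 lies between them and Krt18 above them, Krt17 (92861_i_at) is lowest in rescue cells, and Krt1 is at 139.8 and 142.5 units in Srf-null cells at 30 and 60 min.

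Krt17, a type I keratin of skin appendages that is induced in injured epidermis, went the other way. Its probe set 92861_i_at, whose suffix marks an incomplete set of probes, gave 524.6, 785.9, 906.1, 696 and 797.8 units in Srf-null cells. Rescue cells gave 210.5, 40.74, 178.6, -73.72 and 12.4 units, and wild-type cells gave 317.5, 701.3, 779.7, 451.4 and 597 units. At each time the Srf-null value was the highest and the rescue value the lowest, although Srf-null and wild-type ranges overlapped. From 10 min on Krt17 was at least 7.75-fold higher in Srf-null than in rescue cells (2.95 ± 0.30 on the log2 scale), while the difference from wild-type cells was 0.36 ± 0.30. The higher mean against both lines (1.66 ± 0.26, SE, 4 arrays per line) thus rests mostly on the low rescue values, and the difference of rescue from wild-type cells was -2.60 ± 0.30.

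The second Krt17 probe set, 92862_f_at, carries the suffix for probes shared with a gene family and gave a different picture. It gave 1168, 483.7, -199.7, -183.8 and 383.5 units in Srf-null cells. It was under the floor on all 5 rescue arrays, from -592.1 to -159.2 units, and wild-type cells gave -231.7, 185.4, 418.4, 287.3 and 183.6 units. Srf-null cells were thus the highest line at 0, 10 and 180 min and under the floor at 30 and 60 min. The probe sets of Krt17 share the low rescue level but differ in sign against wild-type cells from 10 min on, at 0.36 ± 0.30 for 92861_i_at and -0.40 ± 0.62 for 92862_f_at.

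Krt1, the type II keratin of the upper epidermal layers, was near the wild-type level in Srf-null cells at 0 min, at a log2 difference of -0.50 at 10 min and far below it at 30, 60 and 180 min, the Srf-null arrays with more non-positive values. Srf-null cells gave 1950, 1254, 139.8, 142.5 and 523.5 units. Rescue cells gave 556.8, 590.6, 1223, 1378 and 732.1 units, and wild-type cells gave 1916, 1769, 1569, 1525 and 1910 units. Wild-type values stayed within a narrow range, and Srf-null and rescue values overlapped. The difference of Srf-null cells from both lines was -1.88 ± 0.58 from 10 min on and -1.32 ± 0.55 over 15 arrays. It shrank to -0.83 without Srf-null 30 min, to -0.82 without Srf-null 60 min, to -0.84 with the floor at the 55th percentile and to -0.25 with the non-positive share of each array as a covariate.

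**Figure D2:**
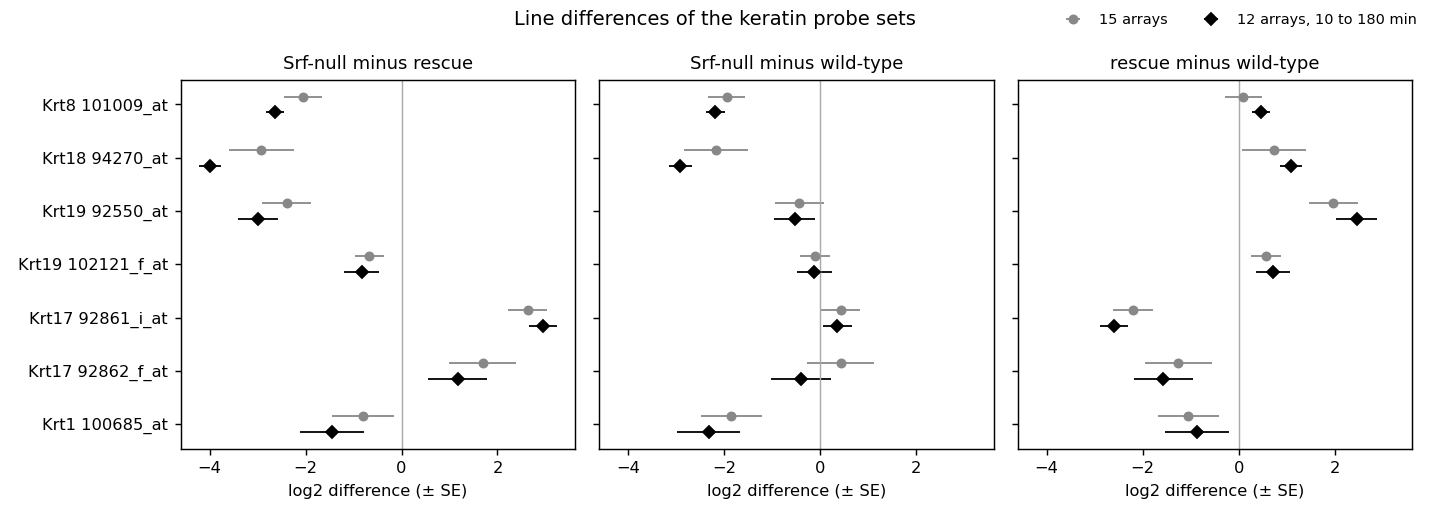
Log2 differences between lines (x axis, with SE bars) for the 7 keratin probe sets, from Srf-null minus rescue, Srf-null minus wild-type and rescue minus wild-type, over 15 arrays (grey circles) and over the 12 arrays of 10 to 180 min (black diamonds). Krt8 and Krt18 are lower in Srf-null cells against each line, Krt19 and Krt17 differ mainly where rescue cells are compared, and Krt1 has wide error bars.

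Read against all probe sets, few were as clearly separated as Krt8 and Krt18. From 10 min on the 4 Srf-null arrays lay below all 8 other arrays for 2 of the 7 keratin probe sets, those of Krt8 and Krt18, and for 1.18% of 9558 probe sets tested. They lay above all 8 for 0 keratin probe sets and for 1.12% of all. With the 0 min arrays included, the Srf-null arrays lay below all others for 0 of the 7. The share of all probe sets was not counted for that comparison, so this 0 has nothing to be read against. A difference against both lines in 1 direction passed limma's test (Benjamini-Hochberg adjusted p under 0.05) for 0.136% of all probe sets over 15 arrays and for 1.16% over 12. Since the members were chosen on this contrast, their counts are a description.

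Krt8 and Krt18 were also read between arrays that had like shares of non-positive values, where single arrays were compared without a test. Srf-null minus wild-type at 10 min was -2.66 for Krt8 and -3.30 for Krt18, as log2 differences. At 0 min it was -1.03 for Krt8 and 0.78 for Krt18, and with 0 and 10 min averaged it was -1.85 and -1.26. The mean of Srf-null 30, 60 and 180 min minus rescue 10 min was -2.20 for Krt8 and -3.27 for Krt18. Against rescue 0 min, which had a like share, the sign turned, to 0.85 for Krt8 and 0.53 for Krt18. For Krt17 (92861_i_at) these differences were 3.23 against rescue 10 min and 1.92 against rescue 0 min, and Srf-null minus wild-type at 10 min was 0.16. For Krt1 they were -1.43, -1.35 and -0.50.

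The Krt1 signal followed the split itself. It was 139.8 to 590.6 units on the 5 arrays with more non-positive values and 732.1 to 1950 units on the other 10, with no overlap. How many of all probe sets separated in this way was not counted, so the pattern may not be particular to Krt1. Krt8 ran from 368.7 to 3053 units on the 5 arrays and from 399.9 to 6340 on the 10, and Krt18 ran from 200.8 to 2806 units on the 5 and from 157 to 7036 on the 10. In Srf-null cells the arrays of 30, 60 and 180 min are all on the side with more non-positive values and those of 0 and 10 min on the other. In rescue cells it is the reverse, with 0 and 10 min on that side and 30, 60 and 180 min on the other. All wild-type arrays are on the side with fewer. For Krt1 the time in serum and the split therefore cannot be told apart in Srf-null or in rescue cells. The same holds for the difference in serum response between the lines.

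**Figure D3:**
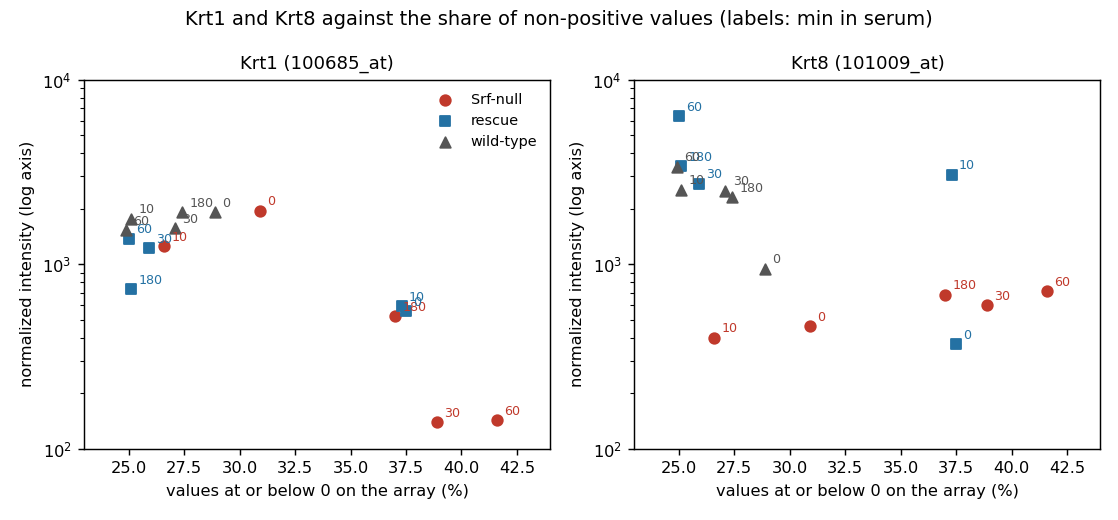
Normalized intensity (log axis) of Krt1 and of Krt8 against the percentage of values at or below 0 on each of the 15 arrays, with symbols for the Srf-null, rescue and wild-type lines and the minutes in serum beside each point. Krt1 is at or under 590.6 units on all 5 arrays with 37% or more of such values and at or over 732.1 units on the other 10, whereas Krt8 is high at rescue 10 min (3053 units) and low at Srf-null 0 and 10 min (462.8 and 399.9 units).

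The serum response was tested as the change from the baseline (0 and 10 min) to the early phase (30 and 60 min) and to the late time (180 min). Averaged over the 3 lines, no keratin probe set passed limma's test, where 0% of 9558 probe sets passed for the early change (243 with an unadjusted p under 0.05, among them 2 keratin probe sets) and 0.0523% for the late change (387 with an unadjusted p under 0.05 and 0 keratin probe sets). Krt8 gave 1.16 ± 0.51 early (SE, limma adjusted p = 0.995) and Krt18 gave 1.30 ± 0.69 (limma adjusted p = 0.995), and Krt8 had its highest value at 60 min in each line. Both means include the low 0 min arrays of rescue and wild-type cells. Krt1 gave -0.85 ± 0.19 early (limma adjusted p = 0.995), and without Srf-null 10 min it was -0.95 and passed (limma adjusted p = 0.0383).

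The early response of Krt1 differed between the lines, but in a way that cannot be told apart from the split by non-positive values. The early change of Krt1 was -3.47 in Srf-null cells, 1.18 in rescue cells and -0.25 in wild-type cells, each ± 0.33 (SE, log2 scale). The Srf-null response minus the mean of both other lines was -3.93 ± 0.40 (SE, limma adjusted p = 0.0181), where 0.0209% of all probe sets passed (823 with an unadjusted p under 0.05). Both Srf-null arrays of the early phase lay below all 4 early arrays of the other lines, but the share of all probe sets that did so was not counted. Those Srf-null arrays also had more non-positive values (38.9% and 41.6%) than the 4 others (24.9% to 27.1%). The adjusted p of the difference of early response ran from 0.00156 to 0.161 over the alternatives in limma. The call was lost with the floor at the 55th percentile, with any single 0, 30 or 60 min array of rescue or wild-type cells left out, and without Srf-null 0 min (limma adjusted p = 0.053). With the non-positive share as a covariate it was -5.17 ± 1.20 (limma adjusted p = 0.161). At 180 min the difference of response was -1.78 ± 0.49 (limma adjusted p = 0.446), where 0.0105% of all probe sets passed (742 with an unadjusted p under 0.05).

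The early change of the second Krt17 probe set, 92862_f_at, was -3.14 in Srf-null cells, 0 in rescue cells, which were at the floor throughout, and 1.47 in wild-type cells. The difference of response was -3.88 ± 0.68 (limma adjusted p = 0.104), and it passed without Srf-null 10 min (-4.51, limma adjusted p = 0.0107). The other Krt17 probe set, 92861_i_at, gave a difference of 0.20 ± 0.87 (limma adjusted p = 0.962). For Krt8 the difference of the early response was -0.83 ± 1.07 (limma adjusted p = 0.853), for Krt18 -2.18 ± 1.47 (limma adjusted p = 0.706) and for Krt19 (92550_at) -1.35 ± 0.98 (limma adjusted p = 0.726). Their errors leave wide intervals, so these data do not show that the lines responded alike.

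Of 43 listed keratin genes outside the 5, 28 were on the array and 18 were tested, and 0 passed against both lines in limma's test, over 15 or over 12 arrays, beside the 0.136% and 1.16% of all probe sets. With so few genes, a count of 0 is near that share. Of the 18, Krt16, Krt20 and Krt77 were above the floor on 2 of 15 arrays each and Krt27 on 4, which leaves little room for a fall. These 4 were named after their values were seen. The median difference of the 18 was 0.06 from 10 min on, with 10 of 18 above 0, beside 0.02 for all probe sets tested. Krt7, another simple-epithelial keratin, did not pass the filter on low values. Krt10, the type I partner of Krt1, gave 0.09 ± 0.37 from 10 min on (limma adjusted p = 0.934), and Krt72, a hair follicle keratin, gave the largest difference of the 18 at 1.55 ± 0.39 (limma adjusted p = 0.112). Krt10 and Krt72 were also named after their values were seen. All lists used here were drawn up with results of these arrays known.

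Desmosomes anchor keratin filaments at cell contacts. Of 13 tested genes of desmosomes and keratin linkers, 0 passed in limma's test over 15 or 12 arrays. Of all probe sets, 0.136% and 1.16% passed, and with so few genes a count of 0 is near those shares. The median of the 13 was -0.12 from 10 min on. Desmoplakin (Dsp), which ties keratin filaments to the desmosome, came nearest, at 349 to 665.9 units on the Srf-null arrays, 1196 to 2341 on the rescue arrays and 606.5 to 1082 on the wild-type arrays from 10 min on. Its difference was -1.24 ± 0.23 (limma adjusted p = 0.0503), and over 15 arrays -1.22 ± 0.25 (limma adjusted p = 0.0999). Dsp passed limma's test without rescue 0 min, and when the filter on low values was applied again to the 12 arrays. Plakoglobin (Jup), a linker shared with adherens junctions, gave -0.21 ± 0.22 (limma adjusted p = 0.695).

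For all probe sets, the share that passed limma's test was 0.136% over 15 arrays and 1.16% over 12. Among 16 tested genes of epithelial junctions and surface, 0 passed over 15 arrays and 1 was lower from 10 min on in limma's test. That gene was Cldn6, a tight junction claudin of early embryonic epithelia, at -2.01 ± 0.32 (limma adjusted p = 0.027). E-cadherin (Cdh1), the main adhesion molecule of ES cells, gave -0.06 ± 0.10 (limma adjusted p = 0.807), with 2119 to 2939 units on the Srf-null arrays, 2362 to 2793 on the rescue arrays and 2381 to 2680 on the wild-type arrays. The claudin genes Cldn7 (-1.81 ± 0.37, limma adjusted p = 0.0607) and Cldn4 (-1.02 ± 0.24, limma adjusted p = 0.0923), named after their values were seen, did not pass, but Cldn7 did when the filter was applied again to the 12 arrays. Of the 16 genes, 12 were below 0 from 10 min on, with a median of -0.11. Epcam, an epithelial surface protein of ES cells, gave 0.56 ± 0.24 (limma adjusted p = 0.334). The 12 tested genes of other intermediate filaments had 0 calls, near the share of all probe sets. Vimentin (Vim), the filament protein of mesenchymal cells, gave -1.33 ± 0.50 from 10 min on (limma adjusted p = 0.279).

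**Figure D4:**
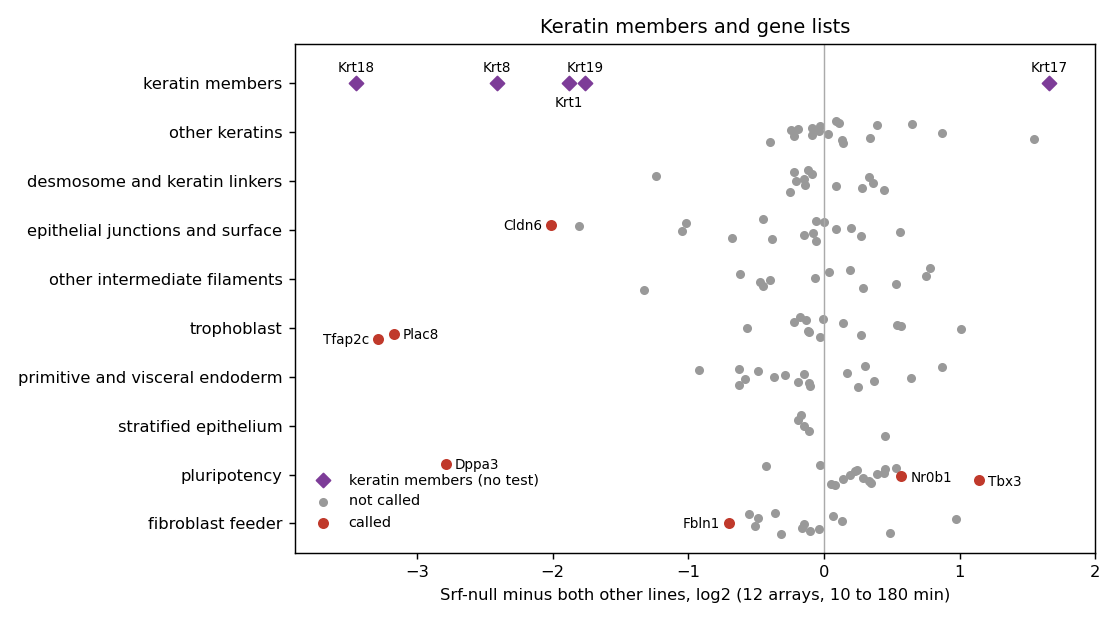
Log2 difference of Srf-null cells minus both other lines over the 12 arrays of 10 to 180 min (x axis) for the 5 keratin genes (diamonds, not tested) and for each tested gene of 9 lists (points), with genes that passed limma's test in red. The 18 other keratins run from -0.40 to 1.55 with a median of 0.06, and none passed, beside 1.16% of all probe sets. Krt18 and Krt8, which were chosen on this contrast, lie at -3.45 and -2.41. Genes that passed below 0 came from several lists, Tfap2c (-3.29), Plac8 (-3.17), Dppa3 (-2.79), Cldn6 (-2.01) and Fbln1 (-0.70). Tbx3 (1.14) and Nr0b1 (0.57) passed above 0.

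Markers of other cell types that carry Krt8 and Krt18 were read beside them. Of 15 tested trophoblast genes, 1 was lower in Srf-null cells over 15 arrays, Tfap2c, a transcription factor of trophoblast and germ cells (-2.98 ± 0.50, limma adjusted p = 0.0457). From 10 min on 2 were lower in limma's test, Tfap2c (-3.29 ± 0.55, adjusted p = 0.0326) and Plac8, a placenta-expressed gene (-3.17 ± 0.33, adjusted p = 0.00487). Beside these counts, 0.136% of all probe sets passed over 15 arrays and 1.16% from 10 min on. The median of the 15 was -0.11 from 10 min on, with 10 below 0 and 5 above. The call of Tfap2c over 15 arrays was lost without any single array of 10, 30 or 60 min and without the 180 min array of rescue or wild-type cells. The summed level of the 8 trophoblast markers on the array was 173.7 to 1396 units on the Srf-null arrays, 2009 to 4931 on the rescue arrays and 120.8 to 1211 on the wild-type arrays. It was high in rescue cells, where Tfap2c alone gave 987.4 to 4457 units, so that sum rests largely on 1 gene. Hand1 and Tpbpa were above the floor on 0 arrays, Cdx2 on 2 Srf-null, 1 rescue and 1 wild-type array, and Gata3 on 1 Srf-null, 4 rescue and 0 wild-type arrays. Eomes was above it on 4 Srf-null, 5 rescue and 5 wild-type arrays, Elf5 on 2, 3 and 1, and Ascl2 on 0, 2 and 0. From 10 min on the difference of Eomes was 0.14 ± 0.36 (limma adjusted p = 0.893). The part of such cells in the keratin differences was not tested. In bulk RNA, fewer cells with keratin and less keratin RNA per cell cannot be told apart.

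Of 17 tested genes of primitive and visceral endoderm, 0 passed in limma's test over 15 or 12 arrays, and of 5 of stratified epithelium 0 passed. With so few genes both counts are near the shares of all probe sets, 0.136% over 15 arrays and 1.16% over 12. The summed level of 9 endoderm markers was 2528 to 4826 units in Srf-null, 2226 to 3644 in rescue and 2718 to 4059 in wild-type cells. The stratified epithelium markers gave 2040 to 6507 units in Srf-null, 634.3 to 2931 in rescue and 1087 to 3393 in wild-type cells, with Krt14, the basal keratin, under the floor on all 15 arrays. Their medians were 2814, 2182 and 2987 units in the same order. The highest Srf-null sum includes Lor at 4281 units on the 0 min array, against at most 657.5 from 10 min on. The fibroblast feeder markers gave 699.7 to 1313 units in Srf-null, 749.7 to 1531 in rescue and 918.2 to 2796 in wild-type cells, with medians of 1007, 1128 and 1295. The highest wild-type sum includes Thy1 at 1613 units on the 0 min array. Lor and Thy1 were named after their values were seen. The feeder list had 1 lower gene from 10 min on, Fbln1, by its probe set 94309_g_at (-0.70 ± 0.11, limma adjusted p = 0.0278), whereas another of its probe sets, 94308_at, gave 0.34 and did not pass. The pluripotency list of 18 tested genes had a median of 0.26, with 15 of 18 above 0 from 10 min on, beside 0.02 for all probe sets tested. It had 2 higher genes from 10 min on, the T-box factor gene Tbx3 (1.14 ± 0.13, limma adjusted p = 0.00692) and the nuclear receptor gene Nr0b1 (0.57 ± 0.11, limma adjusted p = 0.0469), and 1 lower, the germ-line gene Dppa3 (-2.79 ± 0.32, limma adjusted p = 0.00688). The feeder and pluripotency lists had 0 calls over 15 arrays, beside 0.136% of all probe sets. Their calls from 10 min on stand beside 1.16%.

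The probe sets whose pattern was most like that of a keratin were found by the Pearson correlation of log2 values over the 15 arrays, which share lines, times and array quality. Krt18 was the nearest to Krt8 (r = 0.958, and 0.984 over 12 arrays). Also among the nearest to Krt8 were Igf2 (0.949), the annexin Anxa3 (0.947) and the junction protein angiomotin (Amot, 0.937). Among the nearest to Krt18 were the kinase Akt1 (0.959), Krt8 (0.958), Igf2 (0.949) and the actin-binding calponin Cnn2 (0.935). Igf2 shared the low 0 min arrays of rescue and wild-type cells. For Krt17 (92861_i_at) the nearest were the homeobox gene Nkx6-2 (0.953), Cpe (carboxypeptidase E, 0.88), the transcription factor gene Klf5 (0.864), the netrin gene Ntn1 (0.859) and Cltb (a clathrin light chain, 0.852). Nkx6-2 was at 745.8 to 1527 units on the Srf-null arrays, -191.3 to 125.1 on the rescue arrays and 228.2 to 928.9 on the wild-type arrays, so it too was lowest in rescue cells.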

How the data were processed

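The authors deposited 1 intensity per probe set and array, on a linear scale, for 15 arrays. The sources used here do not give their software, background correction or scaling. The values were quantile-normalized, set to a floor at the 40th percentile (84.98), and log2 was taken. Tests covered the 9558 probe sets, controls left out, that exceeded the floor on 2 or more arrays, with names from the platform annotation and symbols updated for 10279 probe sets.

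limma 3.58.1 in R 4.3.3 (lmFit, eBayes with trend, Benjamini-Hochberg) fitted line and time (8 residual degrees of freedom) and line by phase (6). A line call needed 1 direction against both lines. Time points stood for replicates, so p-values reflect the spread between times, which may be technical. Precision is limited by the number of arrays. The steps were tested on simulated data.

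Named genes were the members, called list genes (at most 4 per list), Cdh1, Epcam, Dsp, Jup, Vim, Krt7 and the 5 likest probe sets of Krt8, Krt18 and Krt17, of which 1 is not reported here. The members and lists were chosen with earlier results of these data known. Alternatives were the scaling, floor, filter, time term, array splits and left-out arrays.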

Additional observations from a re-analysis of the deposited data

Results flagged for a closer look

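In 18 groups of 5 arrays, 3 had an extreme array by Dixon's test (a gap to the nearest array over 0.71 of the group's range), where chance gives about 1 in 20. Krt18 was lowest at rescue 0 min, with a gap of 0.737 of the range, and at wild-type 0 min, with 0.835. Both are the arrays that stood apart in their actin ratio and in Igf2. The second Krt19 probe set, 102121_f_at, was highest at wild-type 180 min with a gap of 1, since the other 4 wild-type arrays were at the floor.

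The early serum response of Krt1 differed between Srf-null cells and both other lines by -3.93 on the log2 scale (limma adjusted p = 0.0181), and its level followed the share of non-positive values on the arrays.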

How the results depend on the processing

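The line differences of the 5 genes kept their direction under 23 alternatives each. They ran from -2.41 to -1.70 for Krt8, from -3.45 to -1.91 for Krt18, from -2.34 to -0.42 for Krt19, from 0.79 to 1.90 for Krt17 and from -1.88 to -0.25 for Krt1. Krt19, with Srf-null values at the floor, gave -2.34 with the floor at the 35th percentile and -0.42 at the 55th, and Krt17 gave 0.79 at the 55th. The list genes had 1 call over 15 arrays. It became 0 with the floor at the 35th or 55th percentile, with no time term, with the non-positive share as a covariate and with no filter on low values. It became 7 without the 0 min arrays or without those of wild-type and rescue alone, and 9 when the filter was applied again to the 12 arrays. Leaving out 1 array gave 0 to 4. The 1 keratin call in the difference of serum response became 0 with the floor at the 55th percentile and 0 to 3 with 1 array left out, and the 0 calls in the mean response became 0 to 1. The Krt1 difference itself ran from -4.25 to -3.62 with 1 array left out. The 35th percentile floor, the 18S split, the covariate in the serum fit, the setting without the wild-type and rescue 0 min arrays and the repeated filter were chosen after seeing the data. A floor at the 25th percentile was not run, because that percentile lies below 0. The serum fit was not made without a 180 min array, which leaves a line with no late value. The line fit already matches the lines by serum time, and the labels carry no replicate numbers for a further block. Negative deposited values limit what can be read under the floor.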
